A study of Mus musculus with 4 samples.

Results

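Nr1d1 encodes REV-ERBα, a repressor of the circadian clock from the nuclear receptor family, and lies on mouse chromosome 11 among genes of varied function. The 42 genes described here were listed as its neighbours on that chromosome, without Thra, Rara and Igfbp4. Members were taken as probe sets annotated to exactly 1 of the listed symbols, and where a gene had several, the one with the highest mean intensity was used. Of the 42, 39 had such a probe set, out of 19938 genes in all. Arl5c, Cisd3 and Gsdmb had none and were not analysed here. Gsdmb also had no place in the RefSeq gene order of mouse chromosome 11 used here. No filter on low values was applied, so all 39 entered the test. A gene is called dim where its mean over the arrays was under the 40th percentile of the whole table's probe sets (log2 7.38, or 167 in intensity), and 10 members were dim.

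RNA came from the ventral midbrain of male mice with a C57BL/6J background, aged 10 to 15 weeks. The wild-type group (WT) and the Rev-erba knock-out group (RKO) had 2 arrays each, labelled as biological replicates. Before collection all mice had lived for more than 10 days with 12 h of light a day, then for 2 days without light, and tissue was taken on the day after. The hour of collection, the number of mice per array and the way the knock-out allele was made are not given in the sources used here. Nothing in these sources says that the arrays of a group came from separate animals beyond the word biological, so the p-values measure the spread between these arrays.

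Genes that lie side by side on a chromosome can share regulatory sequence without sharing a function. The neighbourhood of Nr1d1 is dense in genes. It holds Mediator and chromatin subunits, the receptor tyrosine kinase gene Erbb2 with its adaptor Grb7, a gasdermin gene, proteasome subunits, and Thra, the thyroid hormone receptor gene that overlaps Nr1d1 on the opposite strand. Most of these genes have no known tie to the clock.

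Nr1d1 itself had intensities of 2897 and 3099 in the WT group against 1259 and 1229.7 in the RKO group. Its log2 difference (RKO minus WT) was -1.27. Median intensities over all probe sets were alike in the 4 arrays, between 236 and 240.1. Of 10 genes of dopamine neurons, the neurons for which this region is known, none was dim. None of 10 thalamic genes was dim either, so this does not single out the region named in the label. Over all 19938 genes limma called 8 higher and 23 lower in RKO at a Benjamini-Hochberg adjusted p under 0.05, and 1956 genes had an unadjusted p under 0.05.

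Among the 39 measured members Plxdc1 fell, none rose and 38 did not pass the test. That is 1 member called, where over all genes 0.115% were called lower, 0.0401% higher and 0.155% in either direction. Plxdc1 encodes a transmembrane protein with a plexin domain, first known as a marker of tumour endothelium. The WT arrays read 929.6 and 910.1 and the RKO arrays read 552.4 and 567.1. Both RKO arrays lay far below both WT arrays, and the arrays of each group differed little from each other. The fall was 1.64-fold (log2 difference -0.72, SE 0.0590, 95% confidence interval -0.86 to -0.58, limma adjusted p = 0.0114). In these bulk samples fewer cells that express a gene and less of its RNA per cell cannot be told apart.

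The size of the fall in Plxdc1 moved little when an array was left out. Such fits have 1 residual degree of freedom, and a lone array of a group is assumed to vary like the pair of the other group. Without RKO replicate 1 the log2 difference was -0.70 (limma adjusted p = 0.371) and without RKO replicate 2 it was -0.74 (limma adjusted p = 0.298). In each of these fits 1 gene of all 19938 was called. Without WT replicate 1 or WT replicate 2 the call held (-0.70 and -0.73, limma adjusted p = 0.0134 and 0.0101). With the dim genes left out, 13587 genes were tested, 1.6% of them were called (0.964% lower), and Plxdc1 was again the 1 member called (limma adjusted p = 7.45e-05) of 29 members that passed this filter.

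Some markers of other tissues and cell types also differed in the same arrays. The marker lists were chosen with earlier results of these data known, so their counts, medians and sums are descriptions only. Of 10 leptomeningeal genes, 3 fell (Ogn, Islr and Slc13a4), 0 rose and 7 did not pass, with a median of -0.45. Summed, they reached 4735 and 4803 in WT against 3562 and 3602 in RKO, and of the 10 Lum was dim. In this list 8 genes lay below 0, while the collagen genes Col1a1 and Col1a2 stood at 0.13 and 0.07. With the dim genes left out 7 of the list fell and 0 rose, where 0.964% of all genes tested were called lower. Of 10 thalamic genes, 2 fell (Prkcd and Ramp3), 0 rose and 8 did not pass, with a median of -0.21 and none dim. Summed, they reached 15514 and 16037 in WT against 13666 and 13983 in RKO. The list was not uniform, with 8 genes below 0 and 2 above. Rgs16 stood higher at 0.31, and Tcf7l2, Gbx2 and Ntng1 stood near 0 (0.0026, -0.07 and -0.05). Tnnt1, Synpo2, Plekhg1 and Lef1 stood lower, from -0.26 to -0.20, and did not pass. At an unadjusted p under 0.05 there were 7 of the 10, 6 lower and 1 higher. With the dim genes left out the same 2 fell and 0 rose. Of 10 dopamine neuron genes Th rose and 9 did not pass, with a median of 0.24 and a summed intensity of 12100 and 12450 in WT against 15871 and 16137 in RKO. All 10 lay above 0, 7 had an unadjusted p under 0.05, and in 9 both RKO arrays lay above both WT arrays. With the dim genes left out Th, Slc6a3, Slc18a2 and Ddc rose and 0 fell, where 87 of all 13587 genes tested were called higher. Of 5 astrocyte genes limma called 0 (3 had an unadjusted p under 0.05: Gfap at -0.51, Aldh1l1 at -0.31 and Gja1 at 0.22), and with the dim genes left out Gfap and Aldh1l1 fell. Of 5 oligodendrocyte genes limma called 0 (1, Opalin at -0.30, had an unadjusted p under 0.05), and with the dim genes left out Opalin fell. All 5 had both RKO arrays below both WT arrays, where 19.2% of all genes were separated in this direction. The differences of Mbp, Mog, Mag and Mobp were small, from -0.14 to -0.05. Summed, the astrocyte genes reached 9313 and 9389 in WT against 8876 and 9095 in RKO, and the oligodendrocyte genes 22239 and 21843 against 20504 and 20715. The part of these cells and tissues in the difference of Plxdc1 was not tested. For endothelium, the cell type in which the protein was first described, 8 genes were measured, none was dim and limma called 0 (4 had an unadjusted p under 0.05). Plvap, of fenestrated vessels, stood apart at 328 and 381 in WT against 569 and 637 in RKO (0.77, limma adjusted p = 0.0580, and 7.2e-04 with the dim genes left out). Of the 4 genes, Plvap and Cldn5 stood higher and Tek and Emcn lower. The list's median was -0.09, and summed, they reached 4906 and 4960 in WT against 4979 and 5255 in RKO.

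**Figure D1:**
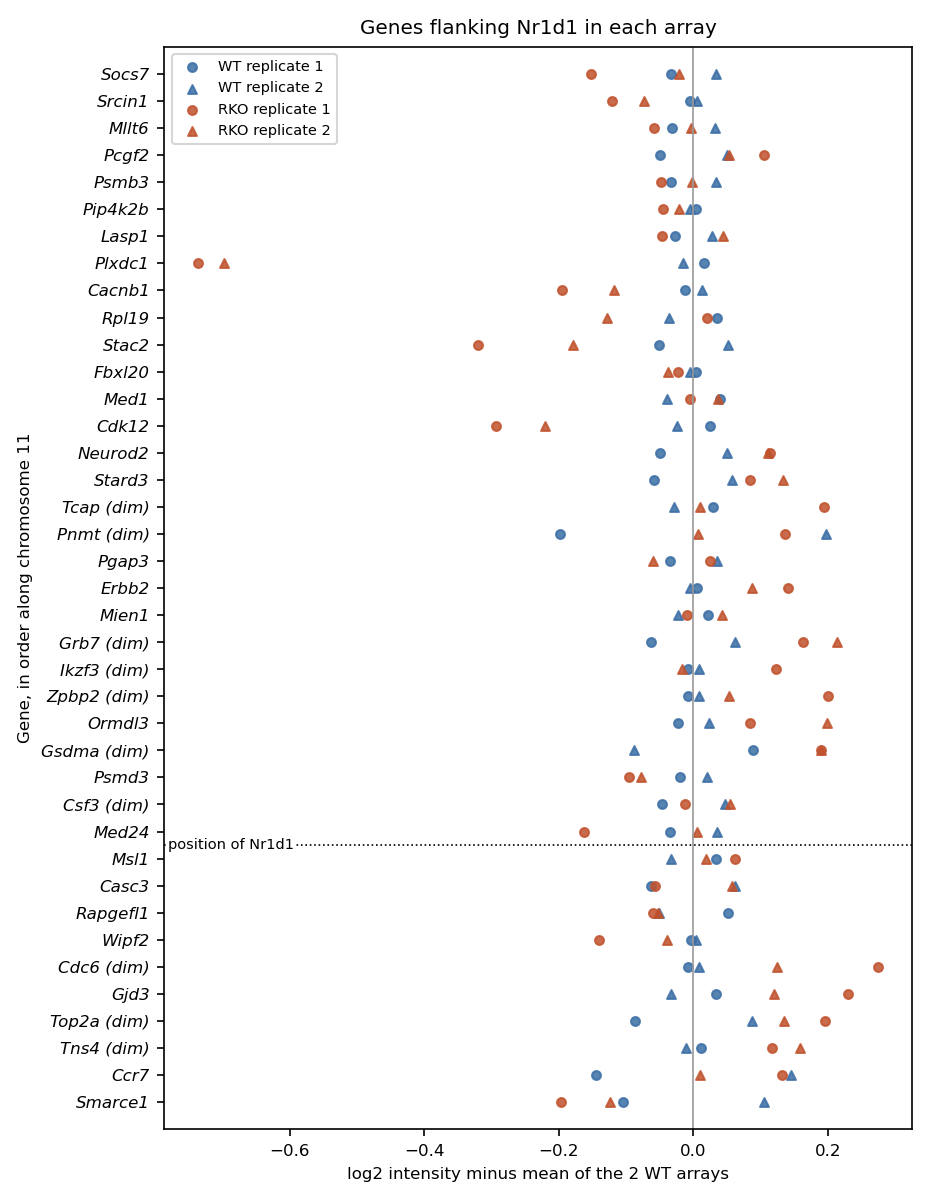
Log2 intensity of the 39 measured members in each array, minus the mean of both WT arrays, in gene order along chromosome 11 (circles replicate 1, triangles replicate 2, blue WT, orange RKO). The RKO points of Plxdc1 lie about 0.7 below its WT points, while those of the other members lie within about 0.35 of the WT mean.

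The 38 members that did not pass had log2 differences from -0.26 to 0.20, with limma adjusted p from 0.293 upwards. Each member's 95% confidence interval, taken singly, bounds what these arrays leave room for. The lowest bound was that of Stac2 at -0.43, a fall of 1.35-fold, and the highest was that of Pnmt at 0.38, a rise of 1.30-fold. Over the 39 members the median difference was 0.016 with 20 above 0, and over all genes it was 0.0050 with 52.1% above 0. The median size of the difference, without its sign, was 0.09 in the members and 0.06 over all genes. For comparison, the median difference between replicates among the members was 0.07 in WT and 0.07 in RKO.

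At an unadjusted p under 0.05 there were 8 members, 4 lower and 4 higher, which is 20.5% of the 39, where 9.81% of all genes reached it (3.7% lower and 6.11% higher). The groups did not overlap in 23 members, 12 with RKO above and 11 with RKO below, where 40.4% of all genes were separated in this way (21.3% with RKO above and 19.2% below). These are counts over genes that share the same 4 arrays, and nothing particular to the list is read from them. Of the 8 members, Plxdc1 passed and the other 7 did not after adjustment over all genes.

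Cdk12, the kinase that phosphorylates RNA polymerase II during elongation, stood at 657.7 and 635.8 in WT and 527.9 and 555.2 in RKO. Both RKO arrays lay below both WT arrays. The log2 difference was -0.26 (SE 0.0623, 95% confidence interval -0.41 to -0.11, limma adjusted p = 0.293). It did not pass here or with the dim genes left out (limma adjusted p = 0.0581), and it did pass with a filter at the 60th percentile (limma adjusted p = 0.0103) and with an intensity trend in the variance prior (limma adjusted p = 0.0204). Those alternatives called 3 members each, where they called 3.13% and 1.87% of all genes. A second probe set annotated to Cdk12 gave 369 and 376 in WT and 347 and 361 in RKO. Its difference was -0.08, so the probe sets of this gene disagreed in size.

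Stac2, an adaptor protein that binds L-type calcium channels, stood at 645.2 and 692.8 in WT and 535.4 and 590.6 in RKO. The groups did not overlap, but the RKO arrays were themselves spread. The log2 difference was -0.25 (SE 0.0749, limma adjusted p = 0.378), and it passed in the same pair of alternatives as Cdk12 (limma adjusted p = 0.0252 and 0.0366). Cacnb1, the β1 subunit of voltage-gated calcium channels, stood at 861.2 and 876.0 in WT and 758.9 and 800.4 in RKO. Its groups did not overlap either, and its log2 difference of -0.16 did not pass (limma adjusted p = 0.492).

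Plxdc1, Cacnb1, Stac2 and Cdk12 stand close together in gene order. Counting the genes of the RefSeq table for GRCm38.p6, coding and non-coding, from Nr1d1 as 0, they take places -46, -41, -39 and -34. The 7 measured members in this run also include Rpl19, Fbxl20 and Med1, at differences of -0.05, -0.03 and 0.02. With the probe sets used, 6 of 7 lay below 0, 1 was called, and the median was -0.16. The 7 probe sets of Rpl19 ran from -0.05 to -0.01, and the second one of Cdk12 stood at -0.08. The run was picked out after its values were seen, so no test was made of it. Lasp1, an actin-binding protein that precedes it at place -49, stood at -0.0015, and Neurod2, which follows at place -30, stood at 0.11.

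**Figure D2:**
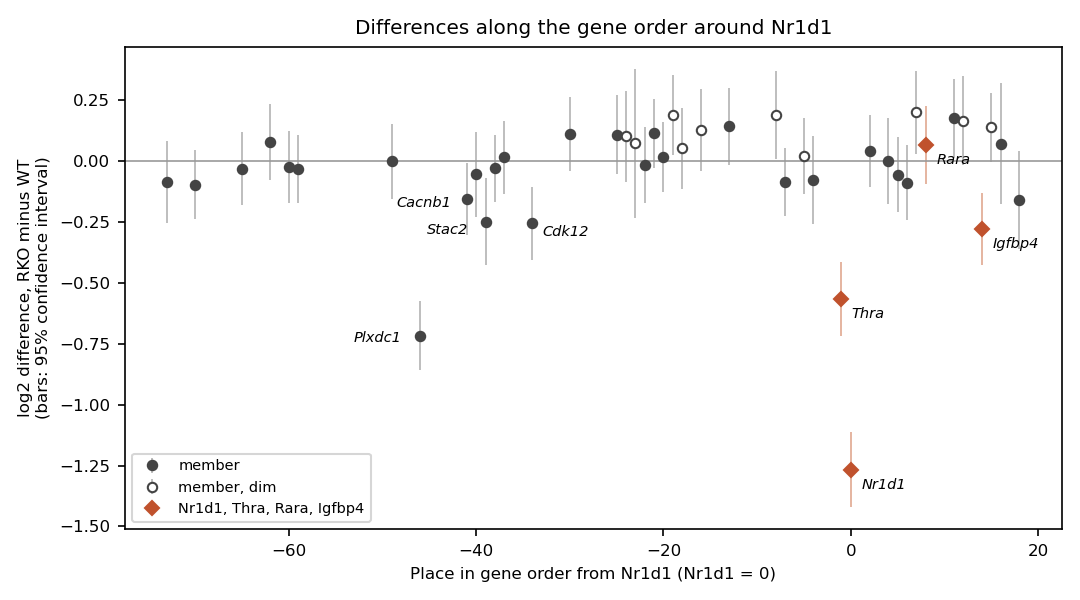
Log2 difference (RKO minus WT) with its 95% confidence interval against place in gene order, for the 39 members (filled, or open where dim) and for Nr1d1, Thra, Rara and Igfbp4 (diamonds). Plxdc1 at place -46 is the 1 member whose difference passed the test, and the members nearest to Nr1d1 lie around 0.

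The 3 members nearest to Nr1d1 on each side were taken next. On the side before it, Med24 of the Mediator complex, at place -4, had intensities of 961.1 and 1009.0 in WT and 880.0 and 988.3 in RKO. Csf3, the cytokine that drives granulocyte production, is dim and had 127.7 and 136.3 in WT and 130.7 and 137.0 in RKO. Psmd3, a subunit of the proteasome's regulatory particle, had 820.3 and 843.6 in WT and 778.9 and 787.9 in RKO. The groups overlapped for Med24 and Csf3, and for Psmd3 both RKO arrays lay slightly below both WT arrays. None passed (log2 differences -0.08, 0.02 and -0.09).

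On the other side, Msl1, a scaffold of a histone acetyltransferase complex at place 2, had 1299.8 and 1241.2 in WT and 1325.1 and 1286.9 in RKO. Casc3, a core protein of the exon junction complex, had 448.1 and 488.7 in WT and 449.7 and 486.7 in RKO. Rapgefl1, a relative of guanine nucleotide exchange factors, had 579.9 and 539.9 in WT and 536.6 and 539.7 in RKO. In Msl1 and Casc3 the groups overlapped, and in Rapgefl1 the RKO arrays lay only just below the lower WT array. None passed (0.04, -0.00036 and -0.06). These 6 members had intervals that reached no lower than -0.26 and no higher than 0.19, where Thra at place -1 fell (-0.57, limma adjusted p = 0.0466).

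Of the other genes left out of the list, Rara, the retinoic acid receptor α, stood at 0.07 and did not pass. Igfbp4, a binding protein of insulin-like growth factors, stood at -0.28 and did not pass without the filter (limma adjusted p = 0.246), but did with the dim genes left out (limma adjusted p = 0.0378). Among all genes within 60 places of Nr1d1, 39 measured ones were not members. Of these, 0 rose, Thra fell and 38 did not pass, where over all genes 0.115% were called lower and 0.0401% higher. Their median was 0.07, and 20 were dim. Without Thra, Rara and Igfbp4, 36 were left, with differences from -0.15 to 0.28. In these limma called 0, and 2 had an unadjusted p under 0.05 (5.56%, where 9.81% of all genes did). Over the whole of chromosome 11, 1563 genes were tested, 0 rose and 4 fell, against the same shares over all genes. The 4 were Nr1d1, Plxdc1, Thra and Ramp3, which is not within 60 places of Nr1d1. With the dim genes left out 8 genes of the chromosome rose and 18 fell, where 0.964% of all genes tested were called lower.

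By role, the 9 measured members of transcription and chromatin had 0 called, a median of 0.02 and 5 above 0. They span the Mediator subunits Med1 (0.02) and Med24 (-0.08), and Smarce1 of the SWI/SNF remodelling complex. Smarce1 stood at 1570.5 and 1814.9 in WT and 1473.4 and 1549.1 in RKO. The WT arrays differed from each other more than the lower of them differed from the higher RKO array. The difference was -0.16 (SE 0.0836), and its 3 probe sets ran from -0.16 to -0.12. The Polycomb ring finger gene Pcgf2 stood at 0.08, Mllt6 at -0.03, and Neurod2, a transcription factor of forebrain glutamate neurons, at 0.11. Beside Neurod2, 6 markers of forebrain glutamate neurons had 0 called in limma (2 at an unadjusted p under 0.05) and a summed intensity of 2173 and 2220 in WT and 1955 and 2067 in RKO, and 3 of the 6, Neurod6, Tbr1 and Neurod1, were dim. The lower sum came from Slc17a7 (-0.34), which fell with the dim genes left out (limma adjusted p = 0.0218). The list's median was 0.09, and 5 of the 6 stood above 0, Emx1 (0.17) among them. The share of Neurod2 in such cells was not tested.

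The 5 members of translation, RNA and protein turnover differed little. All had differences between -0.09 and -0.00036, with 0 called in limma and 0 at an unadjusted p under 0.05. They include the ribosomal protein gene Rpl19, whose 7 probe sets ran from -0.05 to -0.01, and the proteasome subunit Psmb3, whose 2 probe sets stood at -0.03 (the one used) and 0.05, with opposite signs. The RefSeq table names 12 pseudogenes after Rpl19 and 1 after Smarce1, and RNA or probes of such copies cannot be told apart from the genes here. For Rpl19, Smarce1 and Psmb3 whether the probe set used reads the chromosome 11 gene or a copy elsewhere was not tested.

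Of 10 measured members of receptors, ligands and signalling, Plxdc1 fell, 0 rose and 9 did not pass. The largest differences upwards were in dim or nearly dim genes. Grb7, an adaptor that binds activated receptor kinases, is dim and stood at 146.2 and 159.5 in WT and 171.0 and 177.1 in RKO (0.19, limma adjusted p = 0.458). Erbb2, the receptor kinase it binds, stood at 164.4 and 163.3 in WT and 180.6 and 174.0 in RKO (0.11, limma adjusted p = 0.589). In both genes the RKO arrays lay above both WT arrays, in Grb7 by less than its WT arrays differed from each other. Srcin1, an inhibitor of Src kinase in neurons, stood at -0.10, Socs7 at -0.09, Pip4k2b at -0.03 and Mien1 at 0.02. The lymphocyte chemokine receptor Ccr7 stood at 179.5 and 219.4 in WT and 217.4 and 199.8 in RKO, with overlap.

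The 7 members of channels, junctions, cytoskeleton and muscle held 0 calls and 3 genes with an unadjusted p under 0.05. Apart from Stac2 and Cacnb1, this was Gjd3, a connexin. It stood at 726.0 and 693.5 in WT and 832.0 and 771.2 in RKO. Both RKO arrays were above both WT arrays. Its difference was 0.17 (SE 0.0674, limma adjusted p = 0.482). Wipf2, which binds the actin regulator N-WASP, stood at -0.09, and the dim genes Tns4 and Tcap stood at 0.14 and 0.10. Tcap encodes a protein of the muscle sarcomere, and of 6 skeletal muscle markers limma called 0 (2 had an unadjusted p under 0.05) and 3 were dim.

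The lipid, GPI anchor and gasdermin members had 0 called of 4. Ormdl3, a regulator of sphingolipid synthesis, stood at 275.5 and 284.4 in WT and 296.8 and 321.3 in RKO (0.14, limma adjusted p = 0.542), with no overlap. Stard3, a cholesterol transporter of late endosomes, stood at 0.11 and Pgap3, which remodels GPI anchors, at -0.02. Gsdma, a pore-forming gasdermin, is dim and stood at 133.5 and 118.1 in WT and 143.2 and 143.2 in RKO (0.19, limma adjusted p = 0.492). Its paralogues Gsdma2 and Gsdma3 lie beside it, and their RNA may reach the same probes.

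The DNA replication members Cdc6 and Top2a were both dim. Cdc6, which loads the replicative helicase, stood at 130.3 and 131.7 in WT and 158.5 and 142.8 in RKO (0.20, limma adjusted p = 0.448). Top2a, the topoisomerase of dividing cells, stood at 61.3 and 69.1 in WT and 74.5 and 71.5 in RKO (0.16). Its other probe set of 1 symbol stood at -0.06. A further 2 probe sets, annotated to both Top2a and Hibadh and so left out by the rule, stood at -0.25 and -0.20. Of 6 other genes of dividing cells limma called 0 (0 had an unadjusted p under 0.05) and 5 were dim, with a summed intensity of 755 and 801 in WT against 808 and 759 in RKO, and that list did not separate the groups. Pnmt, which makes adrenaline, and Zpbp2, a sperm protein, were dim as well. Pnmt stood at 86.8 and 114.1 in the WT arrays, a spread that held both RKO values, and its difference was 0.07.

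**Figure D3:**
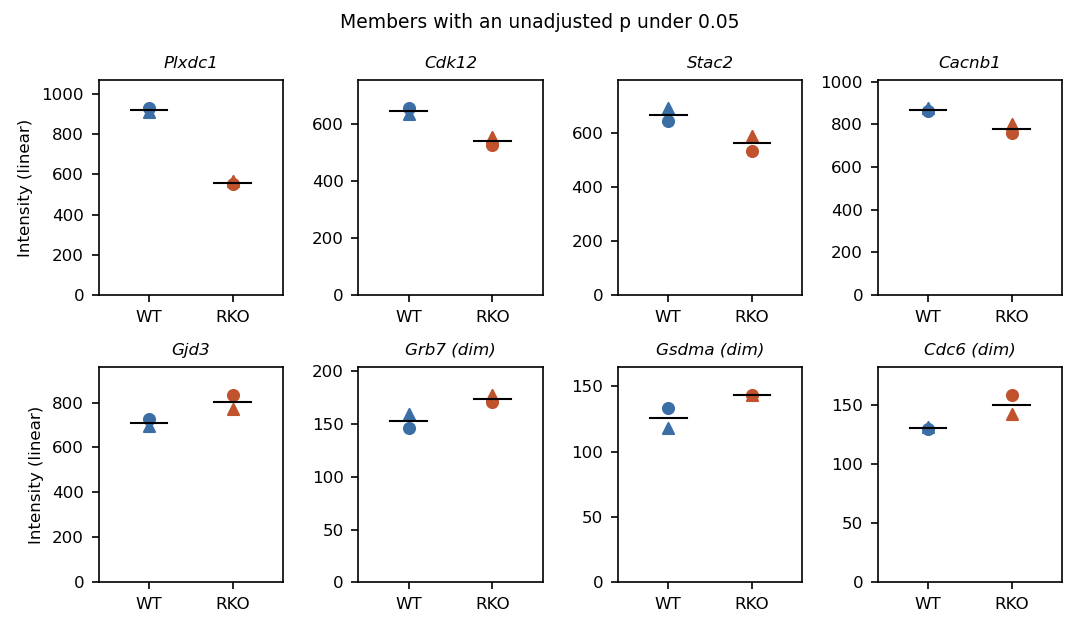
Linear intensity in each array of the 8 members with an unadjusted p under 0.05 (circles replicate 1, triangles replicate 2, lines group means of 2 arrays, vertical axes from 0). Plxdc1 falls from about 920 to 560, while the other 7 differ by much less and did not pass after adjustment.

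Direction went with brightness. All 10 dim members lay above 0, with a median of 0.13, whereas 10 of the 29 brighter members did, with a median of -0.03. The same tilt ran through the whole table: 71.2% of the 6351 dim genes lay above 0 (median 0.06) against 43.2% of the 13587 brighter genes (median -0.01). The tilt depended on the scaling and on the arrays: median centring left 72% of the dim genes and 10 of the 10 dim members above 0, while after quantile normalization 51.3% of the dim genes (median 0.0030) and 7 of the 10 dim members (median 0.07) did. Without WT replicate 1 the dim genes had a median of 0.02 (56.5% above 0, with 8 of the 10 members), without RKO replicate 1 one of 0.03 (61%, 9 members), without WT replicate 2 one of 0.10 (76%, 10 members) and without RKO replicate 2 one of 0.09 (74.2%, 9 members). The dim members that stood higher, Cdc6, Gsdma, Grb7, Top2a and Tns4 among them, thus stand in a table whose dim probe sets were higher in general as deposited. Both members of the replication group and both of the catecholamine and sperm group are of this kind.

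**Figure D4:**
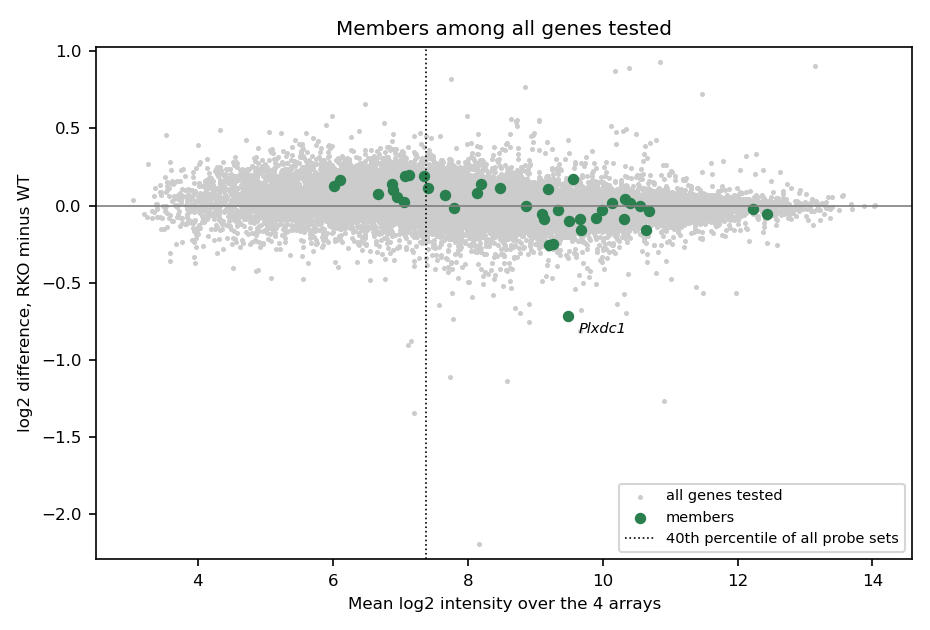
Log2 difference (RKO minus WT) against mean log2 intensity for all 19938 genes (grey) and the 39 measured members (green), with the 40th percentile of all probe sets dotted at 7.38. The 10 members left of the line all lie above 0 in the values as deposited (7 after quantile normalization), and Plxdc1 lies below the bulk of genes of its brightness.

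Promoter sequences were looked up because REV-ERBα binds the hexamer AGGTCA, alone beside A and T bases or as a repeat, and because clock activators bind the E-box CACGTG. The RefSeq promoter table (GRCm38.p6, 250 bases before to 50 after a start) held 26 windows for 22 of the members. Plxdc1 and Stac2 had no entry. On both strands AGGTCA stood in 2 of the 26 windows, of Cisd3 and Pcgf2, against 16.3% of all 32851 windows. The RevDR2 element, a direct repeat of the hexamer with any 2 bases between, stood in 0 of the 26, against 0.00913% of all windows. CACGTG stood in 6 of the 26, of Lasp1, Mien1, Pcgf2, Rpl19 and Wipf2, against 7.15% of all windows. None of these 5 genes passed, with differences from -0.09 to 0.08. A match is a description of letters and shows no binding.

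Printed below are the 250 bases before the start for Cdk12, the lower gene of the run above that has 1 entry in this table, and for Pcgf2, the measured member with the hexamer. They are shown so that the letters behind these counts can be read. Capitals mark AGGTCA and CACGTG, which overlap in Pcgf2, the last letters of one being the first of the other. Both windows lie inside the overall span that RefSeq gives the gene, whose annotated transcripts include more distant starts. Cdk12 is read from chr11:98203055-98203304 on the plus strand and holds none of the motifs. Pcgf2 is read from chr11:97699649-97699898 on the minus strand, with 135 bases between its hexamer and the start.
Cdk12: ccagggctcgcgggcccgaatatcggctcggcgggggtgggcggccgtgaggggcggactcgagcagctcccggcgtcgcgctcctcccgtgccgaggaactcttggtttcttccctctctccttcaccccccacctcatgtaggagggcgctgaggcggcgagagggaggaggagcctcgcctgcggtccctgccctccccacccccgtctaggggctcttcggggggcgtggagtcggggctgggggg
Pcgf2: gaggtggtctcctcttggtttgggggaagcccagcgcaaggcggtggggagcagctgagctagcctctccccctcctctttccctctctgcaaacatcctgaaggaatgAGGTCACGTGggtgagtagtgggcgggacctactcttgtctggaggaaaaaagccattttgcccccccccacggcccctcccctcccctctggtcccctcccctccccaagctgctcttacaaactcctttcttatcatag
Beside these sequences, Cdk12 without the hexamer stood at -0.26 and Pcgf2 with it at 0.08 (265.1 and 283.9 in WT, 295.1 and 284.6 in RKO), and neither passed.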

How the data were processed

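The deposited table held normalized intensities on a linear scale, 1 value per probe set and array, covering 35556 probe sets of an Affymetrix gene array for mouse. Per the submitters' processing notes GCOS and RMA were used, and per the labels' protocols 1 µg of total RNA was made into biotinylated cRNA. Versions and settings are not given in the sources used here. RMA usually makes arrays alike in distribution, which removes a shift common to most genes. Each column holds the intensities of 1 array, so no direction had to be set, and the linear scale was read from the values.

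Values were taken to log2 here without a pseudocount. The platform annotation gave 1 symbol to 21789 probe sets, several to 1621 and none to 12146, and the last 2 kinds were left out. RKO and WT were compared with limma 3.58.1 (lmFit, then eBayes; R 4.3.3), two-sided, with Benjamini-Hochberg adjustment over 19938 genes. The residual degrees of freedom were 2, to which the prior added 4.62. Tables and plots were made in Python 3.11.15. With 2 arrays a group the smallest p of an exact permutation test is 0.333, so none was run. Simulated data with known changes served to check the fit. Gene order came from RefSeq, whose build was not matched to the array.

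The members, role groups and marker lists were chosen with earlier results of these data known. Values in every array are given for members with an unadjusted p under 0.05 or an adjusted p under 0.05, and for the 3 members nearest to Nr1d1 on each side. Others are given by role. Where more than the rule's members are shown in full, they were chosen after their values were seen. Outside the members, Nr1d1, Thra, Rara and Igfbp4 are named, and Ramp3 as the last of the called genes of its chromosome. Single genes of the marker lists, Ramp3 among them, are named as well, and these were picked after their values were seen. Alternatives covered the filter, an added constant of 16, centring, quantile normalization, the variance prior, the probe set rule, each array left out and a replicate block.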

Additional observations from a re-analysis of the deposited data

How the results depend on the processing

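Precision is limited by the 2 arrays per group. Plxdc1 lay below 0 in all 13 alternatives (-0.74 to -0.69) and passed in 11, failing without RKO replicate 1 or RKO replicate 2, fits in which the lone RKO array is assumed to vary like the WT arrays. Members called were 1 except with the 60th percentile filter (3) and the intensity trend (3), which add Cdk12 and Stac2, and with 1 array left out (0 to 1; where limma called 0, 3 members without RKO replicate 1 and 7 without RKO replicate 2 had an unadjusted p under 0.05). The members' median difference of 0.016 became -0.030 and -0.044 with the filters at the 40th and 60th percentile, which remove dim members, and ran from -0.026 to 0.017 with 1 array left out. All genes called numbered 31, against 218 and 296 with these filters, 95 with 16 added before log2, 20 with quantile normalization, 373 with the intensity trend, and 1 to 72 with 1 array left out. The cause was not tested. The labels number the replicates of both groups alike, but do not tie the numbers to a shared litter, batch or day. With the replicate block 23 genes and 1 member were called. Deviations of same-numbered arrays correlated at -0.142, and with the numbers crossed in the replicate block, an alternative chosen after seeing the data, 319 genes and 1 member were called. Of the other named members, Cdk12, Stac2, Cacnb1, Cdc6, Gjd3, Grb7 and Gsdma kept their direction in every alternative that tested them, and Casc3, Csf3 and Med24, all near 0, did not.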
